A study of Danio rerio with 18 samples.

Results

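The integrin and laminin genes were the 48 genes of the count table, out of 27057, whose Ensembl name starts with the name of an integrin alpha or beta chain with a number, of a leukocyte alpha chain (itgae, itgal or itgam), or of a laminin alpha, beta or gamma chain with a number. There were 21 integrin alpha chains, 11 integrin beta chains, 14 laminin chains and 2 genes, ITGB1BP1 and itgb3bp, that match the letters of the rule but encode proteins that bind integrin tails and are not chains. Their RNA was measured in 18 whole zebrafish tumours labelled as melanoma, from fish of the Tu line in a p53-deficient background that all tumours share. In 12 of them the injected plasmid was sox10-BRAFV600E, in which sox10 promoter sequence drives an activated BRAF kinase. The sox10 gene encodes a transcription factor of neural crest and glia. In the other 6 it was mitfa-BRAFV600E, with the promoter of mitfa, a transcription factor gene of the melanocyte lineage. They are called sox10 tumours and mitfa tumours here. The plasmid was injected at the 1-cell stage into fish that were themselves the founders, so each fish is a mosaic, and tumours were taken in adulthood with no age stated. The labels do not say how many fish the tumours came from, and the p-values reflect only how these samples spread.

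Laminins are trimers of 1 alpha, 1 beta and 1 gamma chain that polymerise into the sheet of a basement membrane, the matrix layer around epithelia, vessels, muscle fibres, fat cells and Schwann cells. Integrins are pairs of 1 alpha and 1 beta chain that span the cell membrane, hold matrix proteins outside and connect to actin or keratin inside. The pairing sets the ligand: some pairs bind laminins, some collagens, some the fibronectin and vitronectin family, and some bind counter-receptors on other cells and are made by leukocytes. In skin, melanocytes and keratinocytes rest on a laminin sheet, and in nerve, Schwann cells need laminin to sort and myelinate axons.

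The tumours had 14973777 to 21191902 reads assigned to genes. Levels are given as CPM (counts per 1000000 reads of the library, with TMM scaling). They are not divided by gene length, so levels are not ranked between genes with different names. Ratios between genes are only compared between the groups. For each group the lowest, the median and the highest tumour are given. Reads outside annotated genes made up 11.1% to 17.35% of reads in sox10 tumours and 9.465% to 12.79% in mitfa tumours. Sox10 tumours 9 and 10 were the most alike, with a correlation of 0.86 between their deviations from the group mean over all genes tested, and sox10 tumours 4 and 7 came next at 0.674. Mitfa tumours 1 and 5 stood apart in their epidermal markers, with scores (mean log2 CPM) of 0.38 and 0.36 against 5.86 to 6.64 in the other 4. By summed CPM mitfa tumour 1, at 3142 CPM, lay close to mitfa tumour 6, at 3664 CPM, and only mitfa tumour 5 was lower, at 1699.8 CPM. Melanocyte markers, the defining genes of the labelled tumour type, summed to 16.3 to 123 CPM over 13 genes in sox10 tumours and to 4546 to 19092 CPM in mitfa tumours. Glial markers summed to 9575 to 54963 CPM over 20 genes in sox10 tumours and to 174 to 306 CPM in mitfa tumours. Libraries were numbered separately by group, so any batch along the same line cannot be told apart from the plasmid. In whole tumours fewer cells of a type and less RNA per cell cannot be told apart either.

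Most integrin and laminin chains did not pass the test between the groups. Of the chains that did, 11 were lower and 3 higher in sox10 tumours. Of the 48 genes 45 passed the filter on low counts. With edgeR's quasi-likelihood test and a threshold of 0.05 on the adjusted p, 3 were higher and 13 lower in sox10 tumours, and 29 were not called. Over all 18731 genes tested 21.5% were higher and 22.4% lower, against 6.67% and 28.9% of these members. Without the 2 binding proteins, both lower, 6.98% of 43 chains were higher and 25.6% lower, the latter near the 22.4% of all genes. All 16 called members differed at least 2-fold, as did 16.4% (higher) and 17.4% (lower) of all genes. For 2 members all sox10 tumours lay above all mitfa tumours and for 5 they lay below, where the same held for 6.85% and 4.91% of all genes. The median log2 fold change, sox10 minus mitfa, was -0.59 over the 45 members and -0.03 over all genes. It was -0.64 over the 30 integrin chains tested and 0.28 over the 13 laminin chains tested. Of the laminin chains 7.69% were higher and 23.1% lower, the latter near the 22.4% of all genes. The 3 that did not pass the filter were lama3, itga2.1 and itga6l. For lama3, an alpha chain of the laminin under epidermis, the range was 0 to 0.195 CPM in sox10 tumours and 0 to 0.579 CPM in mitfa tumours. Levels of itga2.1, a collagen receptor chain, were 0.0648 to 2.23 CPM in sox10 tumours and 0 to 8.48 CPM in mitfa tumours, the last in mitfa tumour 1. For itga6l no tumour had more than 2 reads.

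**Figure D1:**
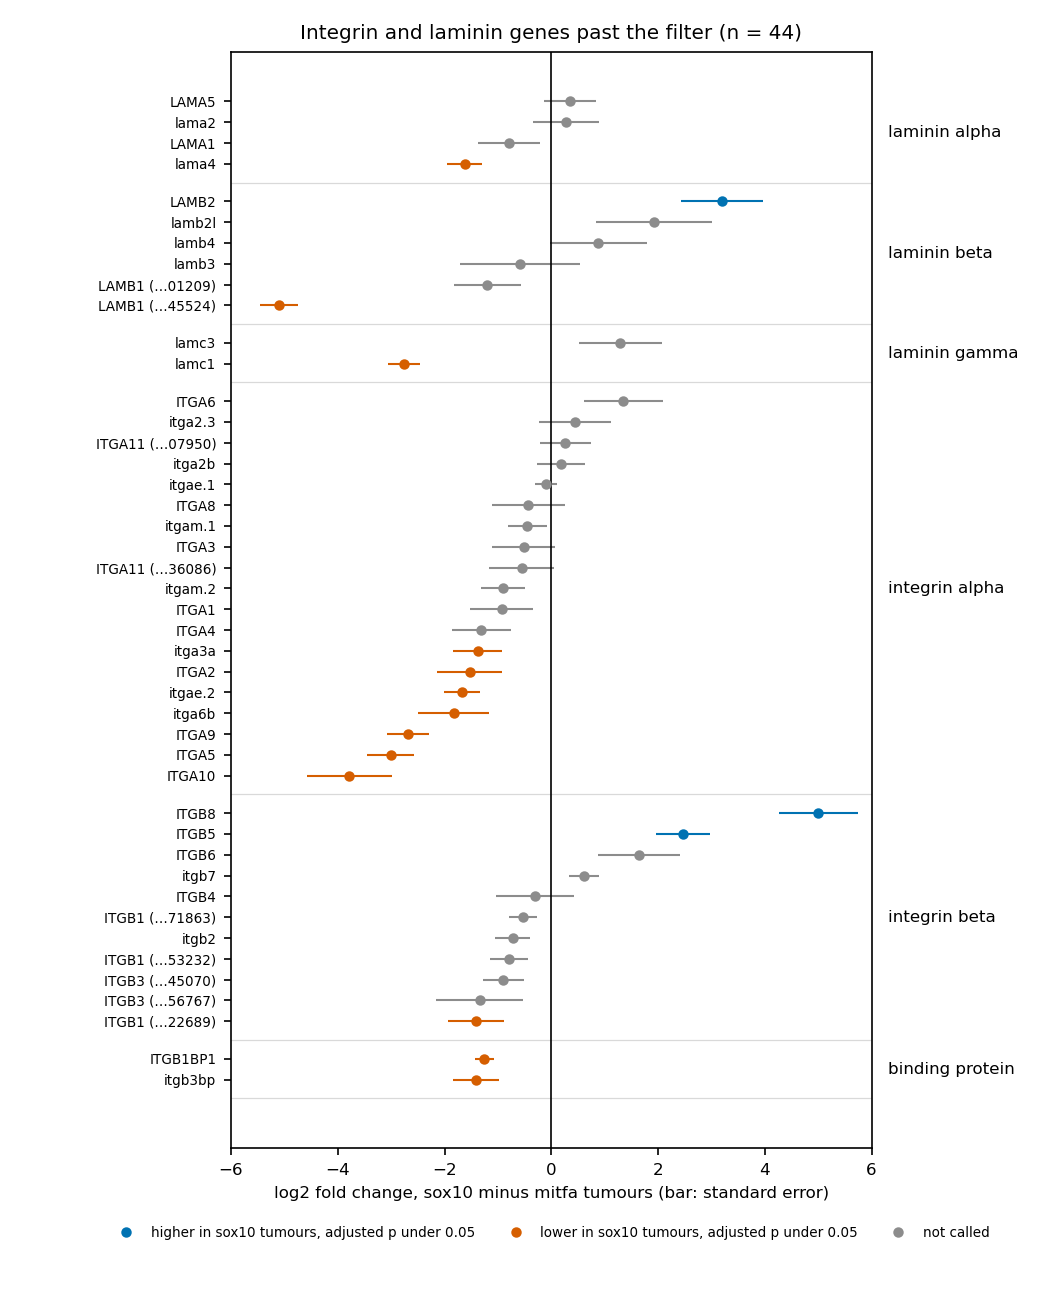
Log2 fold change, sox10 minus mitfa tumours, of 44 integrin and laminin genes past the filter, with bars for the standard error. Filled colours mark the 3 genes higher and the 13 lower at an adjusted p under 0.05, and grey the 28 not called that are drawn; LAMB1 (ENSDARG00000045524) lies lowest at -5.10 and ITGB8 highest at 5.005. Genes that share a name carry the last digits of their Ensembl identifier.

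The laminin chains alpha 4, beta 1 and gamma 1, which can join into a trimer, were all lower in sox10 tumours. The gene LAMB1 (ENSDARG00000045524), a beta 1 chain, had 9.40, 16.3 and 34.5 CPM (lowest, median and highest) in sox10 tumours and 254, 535 and 1179 CPM in mitfa tumours. Its highest sox10 tumour, number 3, stood below its lowest mitfa tumour, also number 3. The log2 fold change was -5.10 (SE 0.36, adjusted p = 2.47e-09 in edgeR). The gamma 1 gene lamc1, whose product is shared by most laminin trimers, had 11.9, 24.3 and 58.3 CPM in sox10 tumours and 88.5, 178 and 329.7 CPM in mitfa tumours, and the groups did not overlap. It fell by 2.76 ± 0.30 on the log2 scale (SE, edgeR adjusted p = 7.63e-07). The alpha 4 gene lama4, typical of vessel, muscle and nerve basement membranes, had 36.6, 66.8 and 169 CPM in sox10 tumours and 145, 231 and 424 CPM in mitfa tumours. Only sox10 tumour 8, at 169 CPM, reached above the lowest mitfa tumour, number 6 at 145 CPM. Its log2 fold change was -1.62 (SE 0.33, adjusted p = 0.000556 in edgeR). The calls of these 3 genes held under all 34 alternatives. Endothelial markers summed to 86.2 to 275 CPM over 23 genes in sox10 tumours and to 78.99 to 208 CPM in mitfa tumours. Of the 22 tested 1 was higher and 2 lower (4.55% and 9.09%, against 21.5% and 22.4% of all genes). With their score as a covariate lama4 was still called. That score overlapped between the groups. In the same fit ITGA2 lost its call (log2 fold change -1.12, edgeR adjusted p = 0.182) and itgb2 gained one (-0.90, adjusted p = 0.028). The part of vessels in lama4 was not tested.

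The beta 2 chain moved the opposite way. LAMB2, which replaces beta 1 in laminins of synapses and kidney in mammals, had 34.6, 109 and 295 CPM in sox10 tumours and 1.77, 4.44 and 57.98 CPM in mitfa tumours. All sox10 tumours lay above 5 of the mitfa tumours, which had at most 8.81 CPM, and mitfa tumour 5 at 57.98 CPM lay among the lower sox10 tumours. The log2 fold change was 3.19 (SE 0.77, adjusted p = 0.00235 in edgeR), and 4.81 without mitfa tumour 5 (edgeR adjusted p = 1.25e-05). The balance of LAMB2 over LAMB1 (ENSDARG00000045524) within each tumour, as the difference of their log2 CPM, averaged 2.53 ± 1.28 (SD, n = 12) in sox10 tumours and -6.61 ± 2.10 (SD, n = 6) in mitfa tumours. The difference was 9.14. The pair was picked after both genes were seen to be called in opposite directions, so the ratio is a description and its p is not given.

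The second gene named LAMB1 (ENSDARG00000101209) did not follow the first. It had 5.17, 14.6 and 41.02 CPM in sox10 tumours and 1.97, 12.5 and 144 CPM in mitfa tumours, with the 2 highest values of all tumours in mitfa tumours 1 and 5, at 86.1 and 144 CPM. It was not called (log2 fold change -1.20, SE 0.63, adjusted p = 0.13 in edgeR), and without those 2 tumours its fold change was 1.16 (adjusted p = 0.0998). The log2 ratio of the first copy to the second averaged 0.07 ± 0.62 (SD, n = 12) in sox10 tumours and 5.03 ± 2.34 (SD, n = 6) in mitfa tumours. Its difference of -4.96, also examined after the values were seen, had a 2-sided exact permutation p of 5.39e-05, the least possible with 18564 arrangements (adjusted p = 0.00035 over 13 ratios), and the groups did not overlap. The 13 include LAMB2 over LAMB1 (ENSDARG00000045524), picked for its values, which lowered the adjusted p of the copy pairs that passed. These p-values therefore describe the copies and are no independent test. Of the 12 copy pairs compared in this way, 1 other passed the threshold, itgae.1 over itgae.2. Reads that map to several places, 1.98% to 2.72% of reads in sox10 tumours and 1.94% to 3.08% in mitfa tumours, were not assigned to genes, so values of alike copies are less certain.

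**Figure D2:**
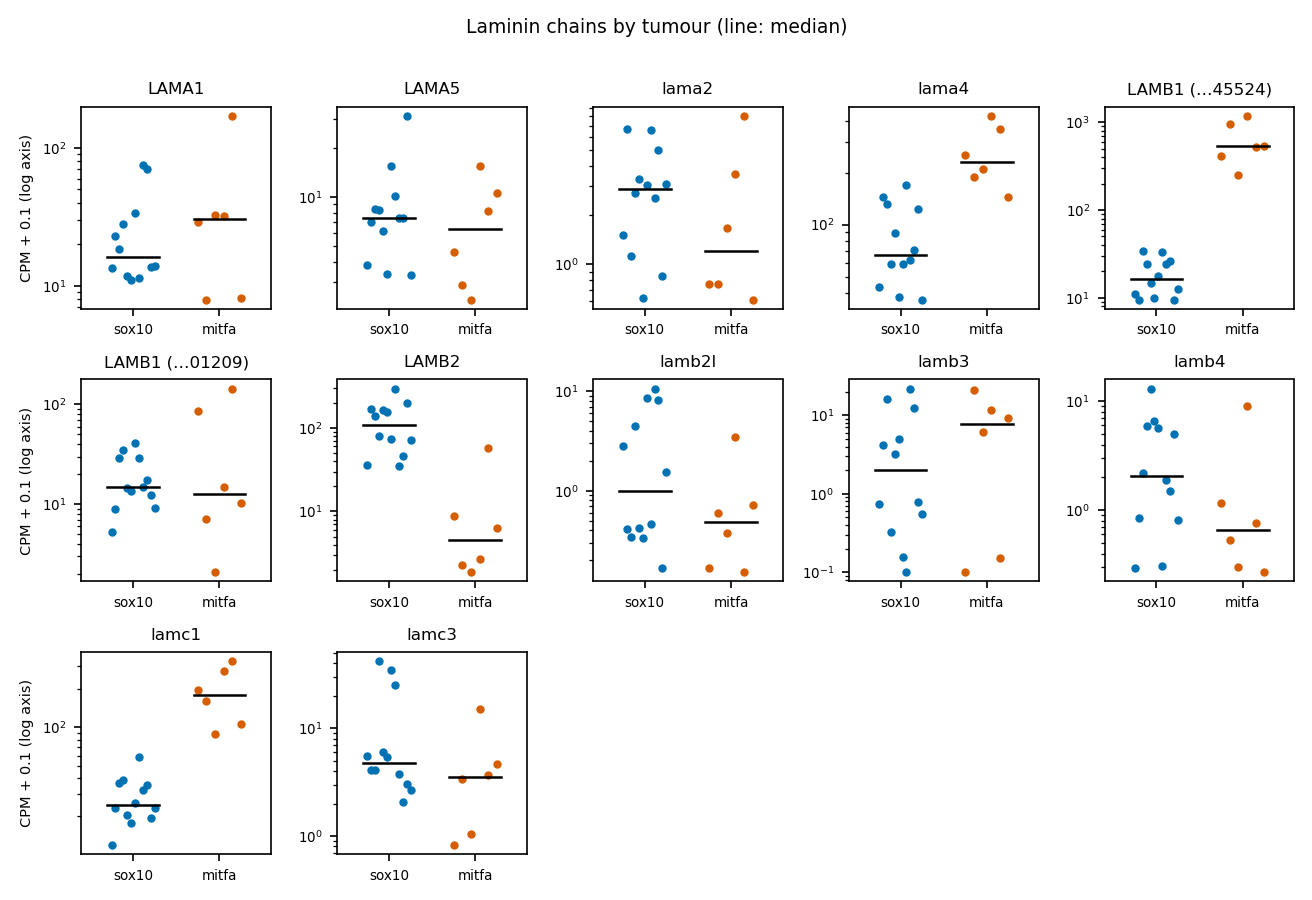
Level of 12 laminin chains past the filter in each tumour, as CPM + 0.1 on a log axis, with sox10 tumours on the left and mitfa tumours on the right of each panel and a line at the median. LAMB1 (ENSDARG00000045524) and lamc1 show no overlap between the groups, LAMB2 overlaps through mitfa tumour 5 alone and lama4 through sox10 tumour 8 alone, and the groups overlap in the other panels.

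The remaining laminin chains were not called, and several were high in a few tumours only. The beta 3 gene lamb3, a chain of the laminin that anchors epidermis, was at 0, 1.88 and 21.8 CPM in sox10 tumours and 0, 7.55 and 21.2 CPM in mitfa tumours. Mitfa tumours 1 and 5, at 0 and 0.0513 CPM, were the lowest of their group, and the groups overlapped. Its log2 fold change of -0.59 (SE 1.13, adjusted p = 0.699 in edgeR) missed the threshold. With the epidermal marker score as a covariate lamb3 was called higher (2.80, adjusted p = 0.0241).

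Gamma 3 and the minor beta chains were patchy. The gene lamc3, a gamma chain of nerve and retina in mammals, had 41.8, 34.8 and 24.96 CPM in sox10 tumours 4, 7 and 8, 14.9 CPM in mitfa tumour 4, and at most 5.92 CPM elsewhere. Neuronal markers summed to 1410 and 1912 CPM in sox10 tumours 4 and 7 and to 458 CPM in tumour 8, the lowest of the sox10 tumours, where the whole list of 23 genes ranged to 1912 CPM in sox10 tumours and from 15.9 to 50.1 CPM in mitfa tumours. Their part in lamc3 was not tested. The beta 2-like gene lamb2l was highest in sox10 tumours 9, 7 and 10, at 10.5, 8.54 and 8.002 CPM, with medians of 0.897 CPM in sox10 tumours and 0.382 CPM in mitfa tumours. The beta 4 gene lamb4 ranged over 0.195 to 12.9 CPM in sox10 tumours and 0.170 to 9.03 CPM in mitfa tumours. Without mitfa tumour 4 all 3 were called higher, with log2 fold changes of 2.12 for lamc3, 3.32 for lamb2l and 2.79 for lamb4 (edgeR adjusted p = 0.047, 0.0333 and 0.0217), against 1.29, 1.92 and 0.88 with it (adjusted p = 0.188, 0.158 and 0.455).

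Among the other alpha chains, LAMA1, the main alpha chain of the early embryo, had 10.97, 16.1 and 75.1 CPM in sox10 tumours and 7.82, 30.4 and 170.0 CPM in mitfa tumours (log2 fold change -0.79, SE 0.58, adjusted p = 0.286 in edgeR). Without mitfa tumours 1 and 5 its fold change was 0.39 (adjusted p = 0.631). Its highest values were 170.0 CPM in mitfa tumour 5 and 75.1 and 70.7 CPM in sox10 tumours 9 and 10. LAMA5, the broad alpha chain of adult epithelia and vessels, ranged over 3.24 to 31.1 CPM in sox10 tumours and 2.25 to 15.3 CPM in mitfa tumours (edgeR adjusted p = 0.581). The muscle and Schwann cell chain lama2 had 0.528, 2.78 and 6.53 CPM and 0.509, 1.11 and 7.89 CPM in those groups (edgeR adjusted p = 0.739). Skeletal muscle markers spanned 36.5 to 14153 CPM over 32 genes in sox10 tumours and 46.0 to 24397 CPM in mitfa tumours, and mitfa tumour 5 was highest both in these markers and in lama2, at 7.89 CPM.

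The alpha chain that pairs with beta 1 as the main fibronectin receptor, ITGA5, was lower in every sox10 tumour than in any mitfa tumour. It had 5.08, 18.98 and 49.2 CPM in sox10 tumours and 92.2, 198 and 279.7 CPM in mitfa tumours, a log2 fold change of -3.005 (SE 0.44, adjusted p = 2.16e-05 in edgeR). ITGA9, whose product with beta 1 binds tenascin and the embryonic form of fibronectin, had 0.536, 1.19 and 2.30 CPM in sox10 tumours and 2.93, 8.01 and 17.1 CPM in mitfa tumours, again with no overlap. It fell by 2.69 ± 0.39 on the log2 scale (SE, edgeR adjusted p = 1.86e-05). Both calls held under all alternatives run, 34 for ITGA5 and 33 for ITGA9. Of 19 fibroblast markers tested 13 were lower too (68.4%, against 22.4% of all genes). The 22 on the list summed to 290.1 to 2567 CPM in sox10 tumours and to 142 to 12794 CPM in mitfa tumours. With the fibroblast score as a covariate ITGA5 and ITGA9 were still called. The part of fibroblasts in these genes was not tested.

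Of 3 genes named ITGB1, their beta partner, 1 was called. The copy with the most reads (ENSDARG00000071863) had 47.4, 60.6 and 119 CPM in sox10 tumours and 60.6, 94.1 and 189.6 CPM in mitfa tumours. Its log2 fold change of -0.54 (SE 0.26, adjusted p = 0.105 in edgeR) did not pass the threshold, except without mitfa tumour 6 (-0.67, adjusted p = 0.0494) and with the epidermal score as a covariate (-0.65, adjusted p = 0.0491). A second copy (ENSDARG00000053232) had 2.57, 6.04 and 14.02 CPM in sox10 tumours and 4.90, 7.71 and 18.2 CPM in mitfa tumours (edgeR adjusted p = 0.0751). It was called without sox10 tumour 6 (log2 fold change -0.99, adjusted p = 0.0175) or mitfa tumour 3 (-0.95, adjusted p = 0.0434). The third (ENSDARG00000022689) had 0 to 29 reads in each tumour and was called lower (log2 fold change -1.41, SE 0.53, adjusted p = 0.037 in edgeR), a call lost in 15 of 33 alternatives, among them those without sox10 tumour 4, 5, 10 or 12 or mitfa tumour 2, 4, 5 or 6 (adjusted p = 0.0522 to 0.0869). None of the 3 log2 ratios between these copies differed between the groups past the threshold (exact permutation adjusted p = 0.299 to 0.687).

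ITGA4, which pairs with beta 1 or beta 7 and binds fibronectin and vascular adhesion proteins on leukocytes and crest cells, was at 14.5, 34.2 and 93.7 CPM in sox10 tumours and 5.72, 51.8 and 215 CPM in mitfa tumours. Mitfa tumours 1 and 5 had 214 and 215 CPM, and every other tumour had at most 93.7 CPM. The log2 fold change of -1.31 (SE 0.56, adjusted p = 0.0637 in edgeR) missed the threshold. It passed without sox10 tumour 11 (-1.52, adjusted p = 0.0327) or mitfa tumour 2 (-1.48, 0.0499), 3 (-1.54, 0.0278) or 6 (-1.55, 0.0187) and with the leukocyte score as a covariate (-2.10, 0.0127), and was 0.26 without mitfa tumours 1 and 5 (edgeR adjusted p = 0.737). ITGA8, a chain that binds nephronectin in kidney and mesenchyme, had 0.406, 3.01 and 11.4 CPM in sox10 tumours and 0.464, 3.21 and 15.2 CPM in mitfa tumours (adjusted p = 0.634).

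Within the naming rule, the integrin chains that rose in sox10 tumours were ITGB5 and ITGB8, both beta chains that pair with alpha v. ITGB8, known in mammals for activating the growth factor TGF-beta and for its place on astrocytes and other glia, had 4.47, 9.19 and 70.4 CPM in sox10 tumours and 0.331, 0.458 and 1.38 CPM in mitfa tumours. The groups did not overlap, and its log2 fold change was 5.005 (SE 0.74, adjusted p = 2.46e-05 in edgeR). Within the sox10 group it was highest in tumours 7 and 4, at 70.4 and 34.8 CPM. ITGB5, a vitronectin receptor chain, had 35.9, 86.1 and 305 CPM in sox10 tumours and 9.67, 19.8 and 35.2 CPM in mitfa tumours, without overlap, but with only a small gap between sox10 tumour 1 at 35.9 CPM and mitfa tumour 1 at 35.2 CPM. It was higher by 2.47 (SE 0.50, adjusted p = 0.000589 in edgeR), and both calls held under all 34 alternatives. Of 17 glial markers tested 14 were higher as well (82.4%, against 21.5% of all genes). Of 10 melanocyte markers 10 were lower (100%, against 22.4%). Their part in ITGB8, ITGB5 and LAMB2 was not tested. Tumours 7 and 3 had the most ITGB5 among sox10 tumours, at 305 and 275 CPM.

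The alpha v gene itself, ITGAV, falls outside the naming rule and was taken up after its values were seen. It had 238, 655 and 1290.5 CPM in sox10 tumours and 102, 241 and 505 CPM in mitfa tumours, a log2 fold change of 1.36 (SE 0.40, adjusted p = 0.00961 in edgeR). Adding the share of reads outside genes to the model removed that call (0.96, adjusted p = 0.191). So did the leukocyte score (1.09, adjusted p = 0.0913) and the replicate block (1.17, adjusted p = 0.207). Of the other beta chains of alpha v, ITGB6, an epithelial chain, had 3.27, 16.95 and 85.5 CPM in sox10 tumours and 1.29, 6.43 and 33.2 CPM in mitfa tumours. It was not called (log2 fold change 1.64, SE 0.77, adjusted p = 0.0909 in edgeR), but was in DESeq2 (1.65, adjusted p = 0.0398) and in edgeR without mitfa tumour 1 (2.58, adjusted p = 0.0147). The 2 genes named ITGB3, the beta chain of platelet and vascular receptors, did not pass either. ENSDARG00000056767 had 0.158 to 8.27 CPM in sox10 tumours and 0.133 to 20.7 CPM in mitfa tumours (adjusted p = 0.192), and ENSDARG00000045070 had 0.685 to 3.58 CPM and 1.36 to 5.30 CPM (adjusted p = 0.0662). The last was called lower by DESeq2 (log2 fold change -0.91, adjusted p = 0.0437), and in edgeR without sox10 tumour 3 or 6 or mitfa tumour 3 or 6 (-1.03 to -1.07, adjusted p = 0.0278 to 0.0423).

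**Figure D3:**
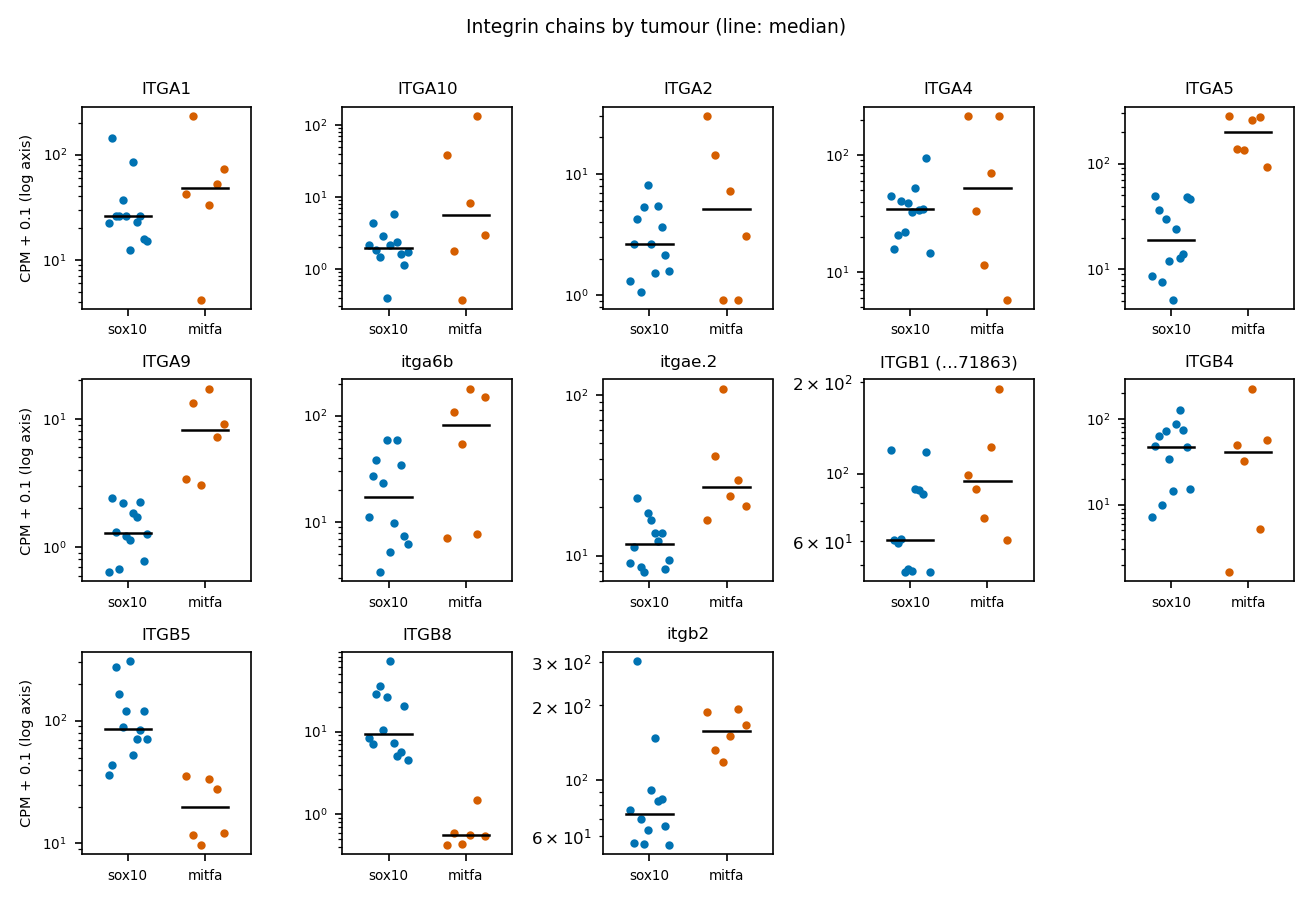
Level of 13 integrin chains in each tumour, as CPM + 0.1 on a log axis, with sox10 tumours on the left and mitfa tumours on the right of each panel and a line at the median. Shown are the chains called with a mean of at least 2 CPM and those with the highest mean CPM that were not called. ITGA5 and ITGA9 lie lower in sox10 tumours without overlap, ITGB5 and ITGB8 higher without overlap.

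No integrin alpha chain within the naming rule was called higher, though ITGAV, outside the rule, was (log2 fold change 1.36, adjusted p = 0.00961 in edgeR). Of 19 tested within the rule, 7 (36.8%, against 22.4% of all genes) were lower in edgeR, 7 in DESeq2 and 4 in limma. The count higher was 0 in each of these tools (21.5% of all genes were higher in edgeR), with 0, 1 and 0 at an unadjusted p under 0.05. Besides ITGA5 and ITGA9 the lower ones were itga6b and itga3a, whose products bind laminins, ITGA10 and ITGA2, which bind collagens, and itgae.2, a leukocyte chain.

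Among laminin receptor chains itga6b and itga3a were lower, while ITGA6, ITGA3 and ITGB4 were not called. The alpha 6 gene itga6b, which pairs with beta 4 in the hemidesmosomes of basal keratinocytes and with beta 1 elsewhere, had 3.31, 17.3 and 58.9 CPM in sox10 tumours and 7.09, 81.6 and 179 CPM in mitfa tumours (log2 fold change -1.83, SE 0.66, adjusted p = 0.0302 in edgeR). Mitfa tumours 1 and 5, the 2 with low epidermal scores, had 7.09 and 7.74 CPM, and the other mitfa tumours 54.7 to 179 CPM. Epidermal markers summed to 195 to 3458 CPM over 23 genes in sox10 tumours and to 1699.8 to 6863 CPM in mitfa tumours, and of the 18 tested 5 were lower (27.8%, against 22.4% of all genes). The fold change of itga6b was -0.54 with the epidermal score as a covariate (edgeR adjusted p = 0.229) and -0.62 with the leukocyte score (adjusted p = 0.654). It was no longer called with the fibroblast score (-1.58, adjusted p = 0.0716), with the share of reads outside genes (-2.02, adjusted p = 0.0919) or by limma (-1.89, adjusted p = 0.0552). Nor was it with the replicate block (-0.99, adjusted p = 0.453). The call was also lost without mitfa tumour 2 (-1.75, adjusted p = 0.0575), 4 (-1.47, 0.0958) or 6 (-1.64, 0.0718). The other alpha 6 gene, ITGA6, had 1.22, 11.4 and 42.8 CPM in sox10 tumours and 0.637, 5.73 and 12.1 CPM in mitfa tumours and was not called (log2 fold change 1.35, SE 0.74, adjusted p = 0.148 in edgeR). The ratio of these copies did not differ past the threshold (difference 2.74, exact permutation adjusted p = 0.157). Without mitfa tumours 1 and 5 the difference was 4.57 (adjusted p = 0.0179). Those tumours had the least itga6b of their group, so leaving them out had to widen the difference, and that p is no independent test.

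ITGB4, the beta chain of hemidesmosomes that is also made by myelinating Schwann cells, had 7.12, 47.6 and 126 CPM in sox10 tumours and 1.52, 40.7 and 227 CPM in mitfa tumours. The log2 fold change was -0.31 (SE 0.72, adjusted p = 0.756 in edgeR). The lowest and the highest of all tumours were both mitfa tumours, with 1.52 and 5.07 CPM in tumours 1 and 5 and 227 CPM in tumour 4. Sox10 tumour 8, the lowest of all sox10 tumours in epidermal markers by their sum, had 88.02 CPM. Of the alpha 3 genes, which encode a receptor of epithelial laminins, itga3a had 0.403, 0.935 and 2.99 CPM in sox10 tumours and 1.16, 2.38 and 7.44 CPM in mitfa tumours, and it fell by 1.37 ± 0.46 on the log2 scale (SE, edgeR adjusted p = 0.021). Without mitfa tumour 2 it was no longer called (-0.92, adjusted p = 0.126). Nor was it with the leukocyte score as a covariate (-0.68, adjusted p = 0.441) or the replicate block (-0.98, adjusted p = 0.337). The epidermal score, the fibroblast score and the share of reads outside genes each removed the call of itga3a as well (-1.03 to -1.38, adjusted p = 0.052 to 0.0878). Its copy ITGA3 had 0.341, 1.43 and 4.52 CPM and 0.615, 1.17 and 7.77 CPM in those groups (adjusted p = 0.504).

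Of the collagen receptor chains ITGA10 and ITGA2 were lower, and neither was called without mitfa tumours 1 and 5. ITGA10, a chain of cartilage cells, had 0.293, 1.88 and 5.62 CPM in sox10 tumours and 0.272, 5.55 and 133 CPM in mitfa tumours. Mitfa tumours 5 and 1 had 133 and 37.9 CPM, and mitfa tumour 3 had 0.272 CPM, the lowest of all. The log2 fold change of -3.79 (SE 0.80, adjusted p = 0.000764 in edgeR) was -2.20 without mitfa tumour 5 (adjusted p = 0.0155) and -0.60 without mitfa tumours 1 and 5 (adjusted p = 0.483). Limma with quality weights gave -1.50 and did not call it (adjusted p = 0.17). Nor was it called in edgeR with the share of reads outside genes (-3.17, adjusted p = 0.104) or the replicate block (-2.28, adjusted p = 0.233). In fibroblast markers mitfa tumour 5 was highest, at 12794 CPM, and with their score as a covariate the fold change of ITGA10 was -0.72 (adjusted p = 0.568). ITGA2, an epithelial and platelet collagen receptor, had 0.970, 2.54 and 7.98 CPM in sox10 tumours and 0.817, 5.06 and 29.8 CPM in mitfa tumours, a fold change of -1.53 (SE 0.61, adjusted p = 0.0485 in edgeR) that lay close to the threshold and lost its call in 22 of 34 alternatives. Without mitfa tumour 1, at 29.8 CPM, it was -0.69 (adjusted p = 0.369), and without any one of 9 sox10 tumours or of mitfa tumours 2 and 4 the adjusted p was 0.0545 to 0.105. ITGA1, a chain of smooth muscle, vessels and fibroblasts, had 12.3, 26.1 and 143 CPM in sox10 tumours and 4.09, 47.6 and 231 CPM in mitfa tumours, and the groups overlapped (log2 fold change -0.93, SE 0.59, adjusted p = 0.215 in edgeR). It was called only without sox10 tumour 2 (log2 fold change -1.34, adjusted p = 0.0493), which had 143 CPM. The 2 genes named ITGA11, a fibroblast chain, had at most 4.96 CPM in sox10 tumours and 3.65 CPM in mitfa tumours (adjusted p = 0.683 and 0.481), and itga2.3 had 0.542, 7.56 and 22.7 CPM and 1.74, 5.34 and 17.4 CPM (adjusted p = 0.617).

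Leukocyte integrins stayed detectable in every tumour, and itgae.2 was the member that fell. This copy of the alpha E chain, which in mammals holds T cells to E-cadherin, had 7.79, 11.7 and 22.7 CPM in sox10 tumours and 16.5, 26.5 and 109 CPM in mitfa tumours. Its log2 fold change was -1.67 (SE 0.34, adjusted p = 0.00053 in edgeR), and -1.06 without mitfa tumour 3 (adjusted p = 0.00387), which had 109 CPM. With the leukocyte marker score as a covariate the call was lost (-1.17, adjusted p = 0.0683), and so it was with the share of reads outside genes (-1.18, adjusted p = 0.0885). The other copy, itgae.1, had 22.6, 35.5 and 60.9 CPM in sox10 tumours and 24.7, 36.8 and 47.6 CPM in mitfa tumours, with a fold change of -0.09 (SE 0.21, adjusted p = 0.743 in edgeR). The log2 ratio of itgae.1 to itgae.2 averaged 1.48 ± 0.49 (SD, n = 12) in sox10 tumours and 0.15 ± 1.25 (SD, n = 6) in mitfa tumours (exact permutation adjusted p = 0.0119). Like the other copy ratios it was examined after the values were seen, so this p is no independent test. Leukocyte markers summed to 1639 to 3888 CPM over 36 genes in sox10 tumours and to 2467 to 5394 CPM in mitfa tumours. Of the 30 tested 15 were lower (50%, against 22.4% of all genes).

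The common beta chain of leukocytes, itgb2, had 55.1, 72.97 and 301 CPM in sox10 tumours and 118, 158 and 193 CPM in mitfa tumours. Sox10 tumours 3 and 8, at 301 and 148 CPM, lay within or above the mitfa range, and the other 10 lay below it, at most 91.2 CPM. It was not called with all tumours (log2 fold change -0.72, SE 0.32, adjusted p = 0.0741 in edgeR) but was without sox10 tumour 3 (-1.04, adjusted p = 0.000489) and by limma (-0.88, adjusted p = 0.036). The partner itgam.1, a chain of macrophages and neutrophils, had 15.8, 30.1 and 73.5 CPM in sox10 tumours and 16.3, 48.3 and 92.2 CPM in mitfa tumours (log2 fold change -0.45, SE 0.36, adjusted p = 0.332 in edgeR), and its fold change was 0.11 without mitfa tumours 1 and 5 (adjusted p = 0.85). Its copy itgam.2 had 0.257 to 4.78 CPM and 2.31 to 6.83 CPM (adjusted p = 0.0827), and was called lower without sox10 tumour 10 (log2 fold change -1.04, adjusted p = 0.0454). The lymphocyte beta chain itgb7 had 14.2, 21.1 and 49.97 CPM in sox10 tumours and 8.39, 15.9 and 22.96 CPM in mitfa tumours and was not called (log2 fold change 0.61, SE 0.29, adjusted p = 0.0892 in edgeR), although it was called higher with the leukocyte score as a covariate (1.02, adjusted p = 0.0421). The thrombocyte chain itga2b had 0.386 to 1.62 CPM in sox10 tumours and 0.136 to 1.56 CPM in mitfa tumours (adjusted p = 0.775), and the 5 thrombocyte markers found summed to 2.70 to 15.8 CPM and 4.70 to 16.2 CPM.

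Both binding proteins were lower. ITGB1BP1, which binds the beta 1 tail and limits its activation, had 18.9, 23.6 and 43.2 CPM in sox10 tumours and 55.7, 60.7 and 78.9 CPM in mitfa tumours with no overlap, a log2 fold change of -1.25 (SE 0.18, adjusted p = 1.75e-05 in edgeR). The gene itgb3bp, whose product is also a centromere protein, had 0.515 to 2.68 CPM in sox10 tumours and 1.31 to 7.64 CPM in mitfa tumours, a fold change of -1.42 (SE 0.43, adjusted p = 0.0126 in edgeR). That call was lost in 5 of 33 alternatives. Without mitfa tumour 6 the fold change was -0.94 (adjusted p = 0.0837). It was -1.06 with the leukocyte score (adjusted p = 0.263), -1.18 with the fibroblast score (0.0795), -1.33 with the share of reads outside genes (0.178) and -1.37 with the replicate block (0.116).

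**Figure D4:**
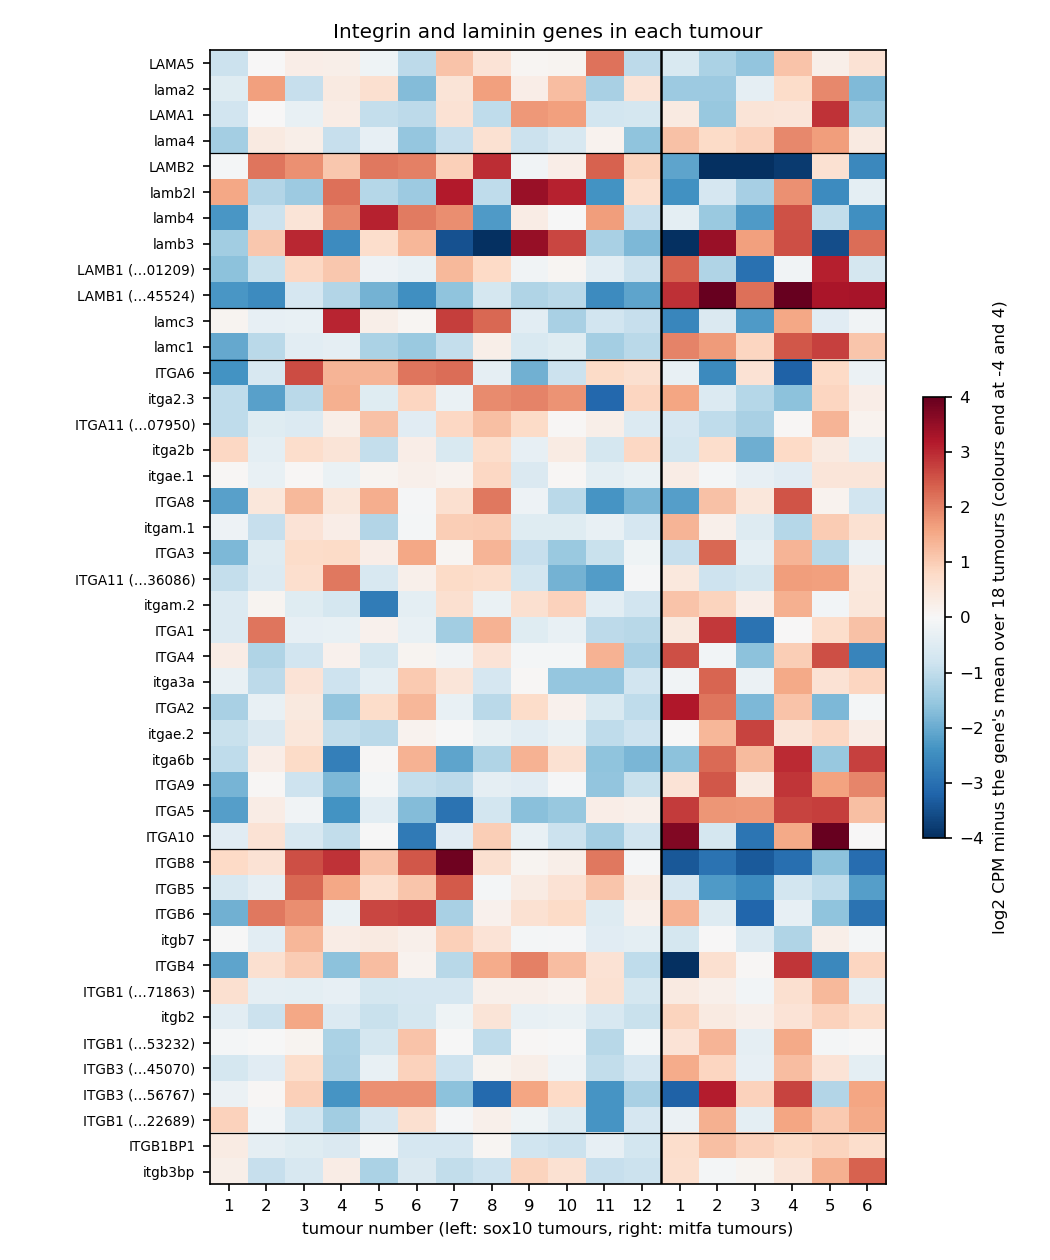
Log2 CPM of 44 genes past the filter in each tumour, minus the gene's mean over the 18 tumours, with sox10 tumours 1 to 12 left of the line and mitfa tumours 1 to 6 right of it. LAMB1 (ENSDARG00000045524), ITGA5 and ITGA9 are higher across the mitfa tumours and ITGB8 across the sox10 tumours, while lamb3, itga6b and ITGB4 split mitfa tumours 1 and 5 from the other 4.

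In a list of 44 tested matrix ligands and partners of these chains, 9 were higher (20.5%) and 12 lower (27.3%) in sox10 tumours, shares near the 21.5% and 22.4% of all genes, with a median log2 fold change of -0.83. TNR, a tenascin of glia that surrounds neurons, had 359, 1634 and 2056 CPM in sox10 tumours and 2.24, 2.63 and 3.41 CPM in mitfa tumours (log2 fold change 9.06, SE 0.44, adjusted p = 4.15e-11 in edgeR). EDIL3 encodes a secreted ligand of alpha v integrins, and of the 2 genes with that name only ENSDARG00000060877 is described here. It had 3.56, 24.9 and 44.02 CPM and 0, 0.104 and 0.226 CPM in those groups (log2 fold change 7.80, SE 0.71, adjusted p = 7.43e-08 in edgeR). Of those that fell, emilin1b, an elastic fibre glycoprotein, had 3.52, 7.52 and 18.4 CPM in sox10 tumours and 164, 695 and 1008 CPM in mitfa tumours, and NID2 (ENSDARG00000075707), a nidogen that links laminin to collagen IV, 1.80, 3.08 and 4.45 CPM and 6.89, 20.98 and 39.1 CPM. They fell by 6.18 and 2.84 on the log2 scale (edgeR adjusted p = 1.15e-09 and 3.66e-07).

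The collagen IV genes COL4A1 and COL4A2 and the 2 genes named NID1, nidogens, were lower too. They were picked from the list of matrix ligands after their values were seen. That list also holds col4a3, col4a4, col4a5, col4a6, hspg2, agrn and a second nid2 gene (ENSDARG00000009471), which are not described here. COL4A1 had 10.7, 30.3 and 165 CPM in sox10 tumours and 69.1, 125 and 310.3 CPM in mitfa tumours, a log2 fold change of -1.87 (SE 0.48, adjusted p = 0.00371 in edgeR), and its neighbour in the collagen trimer, COL4A2, had one of -2.12 (SE 0.50, adjusted p = 0.00212 in edgeR). The call of COL4A1 was lost with the leukocyte score as a covariate (-1.76, adjusted p = 0.0569). NID1 ENSDARG00000068710 had a fold change of -1.44 (SE 0.48, adjusted p = 0.0191 in edgeR), which was -0.88 without mitfa tumour 5 (adjusted p = 0.133) and -0.41 without mitfa tumours 1 and 5 (adjusted p = 0.524). Its copy ENSDARG00000103129 had -1.83 (SE 0.67, adjusted p = 0.0329 in edgeR), which was -0.83 without mitfa tumour 5 (adjusted p = 0.32), no longer called without mitfa tumour 1 (-1.61, adjusted p = 0.077), and 0.50 without both (adjusted p = 0.554). With the fibroblast score as a covariate the 2 NID1 genes had -0.02 and -1.06, in the same order (edgeR adjusted p = 0.976 and 0.452). Limma gave -0.72 and -0.51 (adjusted p = 0.268 and 0.586). Neither was called with the share of reads outside genes or the replicate block in the model.

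Among 59 tested adaptor and signalling genes of integrins, 9 were higher (15.3%, against 21.5% of all genes) and 21 lower (35.6%, against 22.4%), with a median of -0.49. The list also holds ITGAV, itself an integrin chain, which is among the 9 higher. FYN (ENSDARG00000011370), a Src family kinase that acts downstream of integrins in myelinating glia, had 271, 421 and 783 CPM in sox10 tumours and 1.09, 5.83 and 8.61 CPM in mitfa tumours (log2 fold change 6.35, SE 0.41, adjusted p = 7.78e-10 in edgeR). PARVA (ENSDARG00000035629), an actin-binding partner of integrin-linked kinase, had 0.609, 1.16 and 2.63 CPM in sox10 tumours and 1.70, 36.6 and 143 CPM in mitfa tumours and fell by 5.15 on the log2 scale. VCL (ENSDARG00000098695), the adhesion protein vinculin, had a log2 fold change of -3.004 and ACTN1, an actin crosslinker, of -1.79 (edgeR adjusted p = 2.95e-07, 2.24e-06 and 3.65e-06). PARVA and VCL each have a second gene of the same name (ENSDARG00000043710 and ENSDARG00000044968), not described here. Higher calls numbered 5 with the share of reads outside genes in the model and 4 with the leukocyte score.

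Laminin receptors other than integrins, with the enzymes that glycosylate dystroglycan, held more higher than lower genes. Of 31 tested, 13 were higher (41.9%, against 21.5% of all genes) and 4 lower (12.9%, against 22.4%), with a median of 0.51. At least 2-fold higher were 5 of the 31, a share near the 16.4% of all genes. DAG1, dystroglycan itself, the laminin receptor of muscle and Schwann cells, was named after its values were seen and had 46.6, 86.4 and 122 CPM in sox10 tumours and 19.1, 25.9 and 48.8 CPM in mitfa tumours (log2 fold change 1.45, SE 0.28, adjusted p = 0.00033 in edgeR). With the share of reads outside genes in the model it was not called (0.89, adjusted p = 0.0552). The 4 that fell were sdc2 and sdc4, heparan sulphate syndecans that bind matrix beside integrins, CD151 (ENSDARG00000068629), a tetraspanin partner of laminin-binding integrins, and SGCD, a sarcoglycan. A second gene named CD151 (ENSDARG00000038288) was tested too and was not called lower. For sdc2 the levels were 4.24, 9.41 and 18.9 CPM in sox10 tumours and 66.99, 115 and 193 CPM in mitfa tumours. For CD151 (ENSDARG00000068629) they were 2.71, 5.40 and 19.9 CPM and 27.5, 57.6 and 81.4 CPM. The log2 fold changes of the 4 were -3.61 for sdc2, -1.81 for sdc4, -3.03 for CD151 (ENSDARG00000068629) and -2.84 for SGCD (edgeR adjusted p = 8.83e-09, 7.66e-07, 2.04e-06 and 1.46e-05).

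Chains known to assemble together were compared across the 12 sox10 tumours alone, because the groups separate on many genes and a pooled value would follow the group. Of 36 listed pairs of partner chains, or of a chain and a marker list, 31 could be computed, and 3 passed an adjusted p of 0.05 by Pearson's r. LAMB1 (ENSDARG00000045524) and lamc1 were correlated (Pearson r = 0.866, permutation p = 0.00022, adjusted p = 0.00682, and Spearman rho = 0.825, permutation p = 0.00154, adjusted p = 0.035, n = 12). Without sox10 tumours 3 and 8, the farthest from the median of LAMB1, r was 0.819. The alpha genes lama4, LAMA1 and LAMA5 did not follow lamc1 past the threshold (r = 0.488, 0.346 and 0.286, permutation adjusted p = 0.327, 0.466 and 0.534). The chain itga6b followed the epidermal marker score (r = 0.848, permutation p = 0.00044, adjusted p = 0.00682, and rho = 0.79, permutation p = 0.00326, adjusted p = 0.035), with r = 0.799 without tumours 4 and 9. So did lamb3 (r = 0.771, permutation p = 0.00329, adjusted p = 0.034, and rho = 0.776, permutation p = 0.00425, adjusted p = 0.035), with r = 0.691 without tumours 8 and 9. The other chains paired with epidermal markers, ITGB4, ITGA3 and LAMA5, did not pass (r = 0.366, 0.008 and -0.319, permutation adjusted p = 0.466, 0.989 and 0.512).

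Another 2 pairs passed by rank alone. For ITGA4 with ITGB1 (ENSDARG00000071863) rho was 0.776 (permutation p = 0.00452, adjusted p = 0.035) and r 0.688 (permutation p = 0.0134, adjusted p = 0.086), which was 0.482 without tumours 11 and 12. For itgam.1 with itgb2 rho was 0.748 (permutation p = 0.00677, adjusted p = 0.042) and r 0.6665 (permutation p = 0.0139, adjusted p = 0.086), or 0.694 without tumours 7 and 8. ITGA5 with ITGB1 did not pass the threshold (r = -0.00, rho = -0.08, permutation p = 0.989 and 0.816, adjusted p = 0.989 and 0.939), and r was -0.17 without tumours 2 and 7. The leukocyte chain itgb2 did not follow the leukocyte marker score past the threshold (r = 0.356, rho = 0.042, permutation p = 0.26 and 0.903, adjusted p = 0.466 and 0.975), and r was -0.24 without tumours 3 and 8. The points share libraries, and tumours 9 and 10 are much alike. With those 2 summed into 1 library the count of pairs past the threshold by r was again 3.

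**Figure D5:**
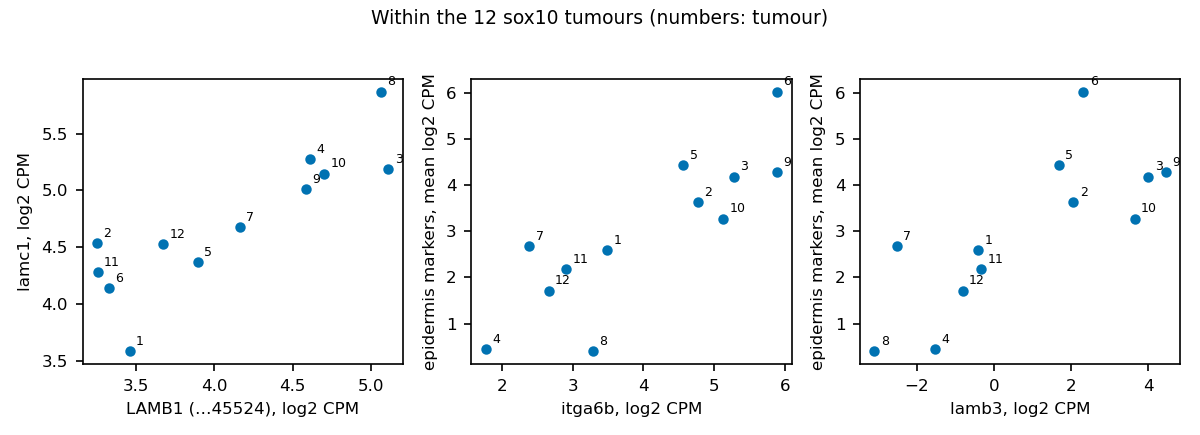
Log2 CPM in the 12 sox10 tumours of LAMB1 (ENSDARG00000045524) against lamc1, and of itga6b and lamb3 against the mean log2 CPM of epidermal markers, with each point numbered by tumour. The points rise together in each panel, with Pearson r of 0.866, 0.848 and 0.771.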

How the data were processed

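Whole tumours were extracted with Trizol and sequenced with Illumina libraries, per the labels' protocols. The submitters' processing notes list FastQC, Trimmomatic, STAR and DESeq2 with no version, and the build GRCz10. For strand and annotation release the sources used here give nothing, so overlapping genes cannot be separated. The values the authors deposited are raw counts of reads per Ensembl gene, 27057 genes in 18 libraries. The 4 rows that name no gene held 19.85% to 30.15% of reads and were left out. Columns were matched by the library name in each sample's description, and 24020 genes were named from a table of Ensembl identifiers. The other reference table gives no Ensembl identifiers, and no sequences or coordinates were used.

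Counts passed edgeR's filterByExpr (count minimum 10, total minimum 15), and were scaled by TMM. The robust quasi-likelihood test of edgeR (version 4.0.16, R 4.3.3) compared sox10 minus mitfa with no covariate and Benjamini-Hochberg adjustment over 18731 genes. Standard errors are the fold change over the square root of F. The test was checked on simulated counts. Ratios and correlations used log2 CPM with a prior count of 2, the latter with 100000 resamples in numpy 2.4.6. Genes in a list match an entry exactly or with copy letters and numbers. Full values are given for called chains at least 2-fold apart with a mean of 2 CPM, the 6 with the highest mean CPM not called, and up to 4 called genes per pathway list. For 1 member the values are not reported here. Members, lists and tests were chosen with earlier results of these data known. Alternatives were DESeq2 1.42.0, limma 3.58.1 with quality weights, other scalings and filters, covariates, a replicate block, and tumours summed or left out.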

Additional observations from a re-analysis of the deposited data

Results flagged for a closer look

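In 6 of the 18 members examined for single tumours that stand apart, 1 mitfa tumour stood far from the other 5 of its group by Dixon's test at 95%. The flagged tumour was always the highest of its group. The test ran on CPM without a log, and its chance rate of about 5% of groups assumes a normal spread. The 6 are therefore not compared with that rate. ITGA1 was at 231 CPM in mitfa tumour 2. ITGA10 was at 133 CPM in mitfa tumour 5, and so were ITGB8 at 1.38 CPM and LAMB2 at 57.98 CPM. Mitfa tumour 5 was also the highest of all tumours in skeletal muscle markers (24397 CPM) and fibroblast markers (12794 CPM). With the fibroblast score as a covariate the fold change of ITGA10 was -0.72 (edgeR adjusted p = 0.568), while ITGB8 and LAMB2 were still called, as all 3 were with the muscle score. For itgae.2 it was mitfa tumour 3, at 109 CPM, and for ITGB4 mitfa tumour 4, at 227 CPM. Mitfa tumour 4 had the highest epidermal marker sum, 6863 CPM.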

How the results depend on the processing

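Over the alternatives run, the calls of LAMB1 (ENSDARG00000045524), lamc1, lama4, LAMB2, ITGA5, ITGA9, ITGB5, ITGB8 and ITGB1BP1 did not change. Members called higher, 3 with all tumours, numbered 5 with the epidermal score as a covariate and 3 to 6 when 1 tumour was left out, 6 without mitfa tumour 4. Members called lower, 13, numbered 10 to 16 when 1 tumour was left out, 8 at a minimum of 5 CPM in 6 tumours, where 30 members were tested and each kept its call, 6 with the share of reads outside genes in the model, 8 with the leukocyte score and 7 with the fibroblast score. Lower matrix genes, 12, numbered 7 with the share of reads outside genes. That share and the leukocyte score gave 5 and 4 higher adaptors, against 9, and 8 and 8 higher laminin receptors, against 13, of which 5 were at least 2-fold. Over all genes 4024 higher calls became 2432 and 2246, and 4190 lower calls 2489 and 2206. The sign of a called value turned for lamb3 with the epidermal score (2.80, against -0.59) and for NID1 (ENSDARG00000103129) without mitfa tumours 1 and 5 (0.50, against -1.83). Without those 2 tumours it also turned for ITGA4, LAMA1, itgae.1, itgam.1 and LAMB1 (ENSDARG00000101209), called in neither fit. Apart from the 5 CPM minimum, the cause of these changes was not tested.

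Replicate numbers did not pair the tumours: same-numbered tumours had deviations correlated at -0.308 to 0.172, and 1 of 6 mitfa and 3 of 6 sox10 tumours were closest to their own number. With the replicate number as a block 8 members, 7 matrix genes and 11 adaptors were lower, and 2660 genes were higher and 2109 lower. Only numbers 1 to 6 occur in both groups, so the other sox10 tumours add nothing to the group comparison in that fit. Chains under 2 CPM, such as itga3a, rest on few reads, which limits their precision.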
